A study of Mus musculus with 48 samples.

Results

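Interleukin 3 response genes are genes that the interleukin 3 signal regulates, above all through the transcription factor STAT5, together with the feedback inhibitors that damp that signal. Here they are 10 genes of the 55487 in the deposited table: Socs1, Socs2, Socs3, Cish, Pim1, Pim2, Pim3, Osm, Id1 and Bcl6. They were taken by symbol, a rule that uses no measured value, from a list drawn up with earlier results of these data known, and all 10 were found. Of these, 9 passed the filter on low counts in RNA, in footprints and for translational efficiency, and Bcl6 failed it at each level.

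The cells were Ba/F3, a mouse line described as pro-B that grows only with interleukin 3 in the medium. They were grown with 10% serum and 1 ng/ml interleukin 3, and cycloheximide at 0.1 mg/ml was added for 1 min before harvest, so all 8 genotypes shared the cytokine and the drug. Besides WT there were 3 heterozygous genotypes, named Rpl5+/-, Rpl11+/- and Rpl22+/-, the genotype Rpl22-/-, and 3 point mutations that the genotype labels write on both alleles (the titles of the P131S RNA libraries name the mutation once): Rpl10 R98S, with Rps15 H137Y and Rps15 P131S, the last pair tied by the series title to chronic lymphocytic leukaemia. Each had 3 clones made with CRISPR-Cas9, and each clone gave 1 poly(A) RNA-seq library and 1 library of ribosome footprints, the pieces of mRNA left protected inside ribosomes after nuclease digestion. A clone descends from 1 edited cell, so the spread within a genotype is the spread between such clones. There was no arm without interleukin 3, so what is compared is the level of these genes under constant stimulation.

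Interleukin 3 binds a receptor made of a cytokine-specific chain and a beta chain, which carries the kinase JAK2. JAK2 phosphorylates STAT5, which moves to the nucleus and binds palindromic sites near its target genes. Among those targets are Cish and the Socs genes, whose products block the receptor or JAK2, the Pim kinases, which sustain growth and survival, and Osm, which encodes the secreted cytokine oncostatin M. Id1, an inhibitor of basic helix-loop-helix transcription factors, and Bcl6, a transcriptional repressor, are also cytokine-regulated genes of blood cells.

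The promoter windows show how such a site looks in genes of the set. The palindrome TTCNNNGAA, the core bound by STAT proteins, reads the same on both strands and was searched in RefSeq windows of 300 bases (250 before a transcription start and 50 from it on, GRCm38.p6). Of 32851 such windows, 8.30% held it, 0.457% held it at least 2 times and 0.0335% at least 3 times. The table had 9 windows for 7 members, and 4 windows of 3 members held it. The following were chosen because they carry the palindrome, written in capitals, in Cish, Socs3 and the second listed start of Bcl6, and because Pim2, printed without capitals, had no match and is the member with the largest footprint change in the Rps15 clones. Cish is shown as 30 bases of the plus strand at chr9:107296654-107296683, Socs3 as 250 bases of the minus strand at chr11:117969367-117969616, Bcl6 as 250 bases of the minus strand at chr16:23981284-23981533, and Pim2 as 250 bases of the plus strand at chrX:7878056-7878305, each 5′ to 3′.
Cish: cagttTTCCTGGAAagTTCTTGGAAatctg
Socs3: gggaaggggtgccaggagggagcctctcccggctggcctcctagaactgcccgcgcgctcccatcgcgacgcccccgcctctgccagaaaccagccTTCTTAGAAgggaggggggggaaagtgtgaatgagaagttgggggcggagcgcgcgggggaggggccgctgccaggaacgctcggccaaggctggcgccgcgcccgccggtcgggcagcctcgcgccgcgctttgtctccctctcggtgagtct
Bcl6: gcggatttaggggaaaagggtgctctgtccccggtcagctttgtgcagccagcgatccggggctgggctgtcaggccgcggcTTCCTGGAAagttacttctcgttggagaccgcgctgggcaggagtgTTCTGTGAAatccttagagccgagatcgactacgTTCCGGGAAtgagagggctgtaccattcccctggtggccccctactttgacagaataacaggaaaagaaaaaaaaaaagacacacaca
Pim2: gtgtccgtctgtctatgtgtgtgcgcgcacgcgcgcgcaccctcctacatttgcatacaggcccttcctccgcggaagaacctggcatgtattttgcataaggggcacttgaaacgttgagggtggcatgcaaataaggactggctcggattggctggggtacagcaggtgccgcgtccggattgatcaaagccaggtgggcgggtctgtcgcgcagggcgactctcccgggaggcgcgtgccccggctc

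In Cish the 2 matches begin at bases 1 and 12 counted from the annotated start, and in Socs3 the match begins 154 bases before the start. In the Bcl6 window the 3 matches begin 168, 122 and 88 bases before the start, and the window of its other listed start held 1 match. The windows of Socs1, Pim1 (2 starts), Pim2 and Pim3 held none, which says only that these letters do not occur there.

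The libraries set limits on what follows. RNA-seq libraries held 13029073 to 38258559 estimated reads and footprint libraries 15598994 to 72044439. Pro-B markers were mostly missing: Ptprc had a mean of 234 CPM (the read count scaled to library size) and Cd79b 6.64 CPM in RNA, whereas Rag1 and Rag2 had at most 1 read and Pax5 at most 3 in any RNA library. Rpl5 and Rpl11 RNA stood at 67.2% and 64.1% of WT in their heterozygous clones. Rpl22 footprints were 274 and 317 CPM in clones 649 and 776 labelled Rpl22-/- but 1544 CPM in clone 30 with the same label, within the 1429 to 1596 CPM of Rpl22+/-, so that clone goes against its label. The Rpl22-/- values of Socs1, Socs2, Cish and Id1 below are also given without it, and the counts over pathway lists include it. Rps15 RNA was 817 to 906 CPM in H137Y clones 6 and 2 and P131S clone 24, and 1825 to 1935 CPM in the other 3 Rps15 clones, against 1432 to 1454 CPM in WT. The summed RNA of 10 neutrophil markers was 527 to 2836 CPM in P131S and 542 to 3133 CPM in H137Y against 42.7 to 163 CPM in WT. Of the 8 of these markers that were tested, 6 were called higher in P131S and 7 in H137Y. The shares of all genes called in RNA there were 47% and 41%, which also stand beside the marker counts below. S100a8, S100a9 and Ltf had the highest values of the 10, up to 982, 1456 and 537 CPM. Elane and Camp stayed at or below 0.201 and 0.317 CPM in all RNA libraries. Of 3 tested erythroid markers, 3 were called higher in H137Y and 1 lower in P131S, and the sum of 5 was 77.6 to 305 CPM in H137Y and 25.3 to 54.5 CPM in P131S against 36.5 to 60.7 CPM in WT. Of 3 tested mast cell and basophil markers, 2 were called higher and 1 lower in P131S and 1 higher and 1 lower in H137Y. Kit, Mcpt4 and Tpsb2 were at 0 in all 24 RNA libraries, and Fcer1a, Ms4a2 and Cma1 stayed at or below 0.673 CPM. Gata2, in contrast, had 303 to 513 CPM, Cpa3 7.77 to 239 CPM and Mcpt8 0 to 41.0 CPM. The part of these markers in the results below was not tested, and in such bulk libraries fewer cells of a type and less RNA per cell cannot be told apart.

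Over the whole set, RNA levels differed from WT in 18 of 63 pairs of gene and genotype, 16 lower and 2 higher. Footprints differed in 9 of 63, 6 lower and 3 higher. The pairs pool genotypes in which the share of all genes called ran from 1.04% to 47% in RNA. In footprints that share ran from 0.0123% to 16.7%. A gene was called when its adjusted p was below 0.05 in edgeR's quasi-likelihood test, and all 7 comparisons share the same 3 WT clones. In RNA, 7 of 9 members were called in Rps15 P131S (1 higher, 6 lower), where 47% of all genes were called, and 5 of 9 in Rps15 H137Y (all lower), where 41% were. In both genotypes the count stood against a background in which a large share of all genes differed. Of 12814 genes tested, 3031 were called higher and 2993 lower in P131S, and 2697 higher and 2557 lower in H137Y. In the other genotypes 2 members were called in Rpl22+/- (background 3.9%) and 2 in the clones labelled Rpl22-/- (5.27%). In Rpl11+/- 1 was called (11.8%), in Rpl10 R98S 1 (12.9%) and in Rpl5+/- none (1.04%). In Rpl5+/- 3 members had an unadjusted p below 0.05, as did 1897 of the 12814 genes tested. The members' median log2 change was −0.58 in P131S and −0.45 in H137Y, against −0.01 and 0.01 for all genes tested. Without P131S clone 20, which had the lowest RNA of the 3 P131S clones in 8 of 9 members, 26 pairs were called. Without clone 30 labelled Rpl22-/- 17 were. The counts over all genes moved as well. Without clone 20 they were 5017 in P131S (6024 with it) and 5699 in H137Y (5254 with it).

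In footprints, 5 members were called in P131S (1 higher, 4 lower, background 16.7%), 3 in H137Y (1 higher, 2 lower, background 11.7%) and 1 in Rpl22+/- (higher, background 0.253%). None was called in Rpl5+/-, Rpl11+/-, the clones labelled Rpl22-/- or Rpl10 R98S, where the backgrounds were 0.0123%, 0.074%, 0.105% and 1.62%. There 1, 2, 2 and 3 members had an unadjusted p below 0.05, as did 667, 1601, 1093 and 2209 of all 16217 genes tested. DESeq2 called 13 pairs over the 7 comparisons and limma voom 9. DESeq2 also called more of all genes, as given in the closing section. Of the 3 WT footprint libraries, clone 2 had the lowest level in 9 of 9 members and clone 3 the highest in 8 of 9. The WT SD in footprints was 109 CPM for Pim1, 59.5 CPM for Pim2 and 55.3 CPM for Cish. In RNA it was 46.1, 33.0 and 11.7 CPM. For Socs1 and Pim3 alone, whose footprint means were also lower, it was smaller in footprints (1.77 and 0.463 CPM against 3.10 and 0.977 CPM). In a joint test of all 7 genotypes, 8 of 9 members passed in RNA (background 65.6%) with Socs3 as the exception, and 5 of 9 in footprints (24.6%): Socs1, Cish, Pim2, Osm and Id1.

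**Figure D1:**
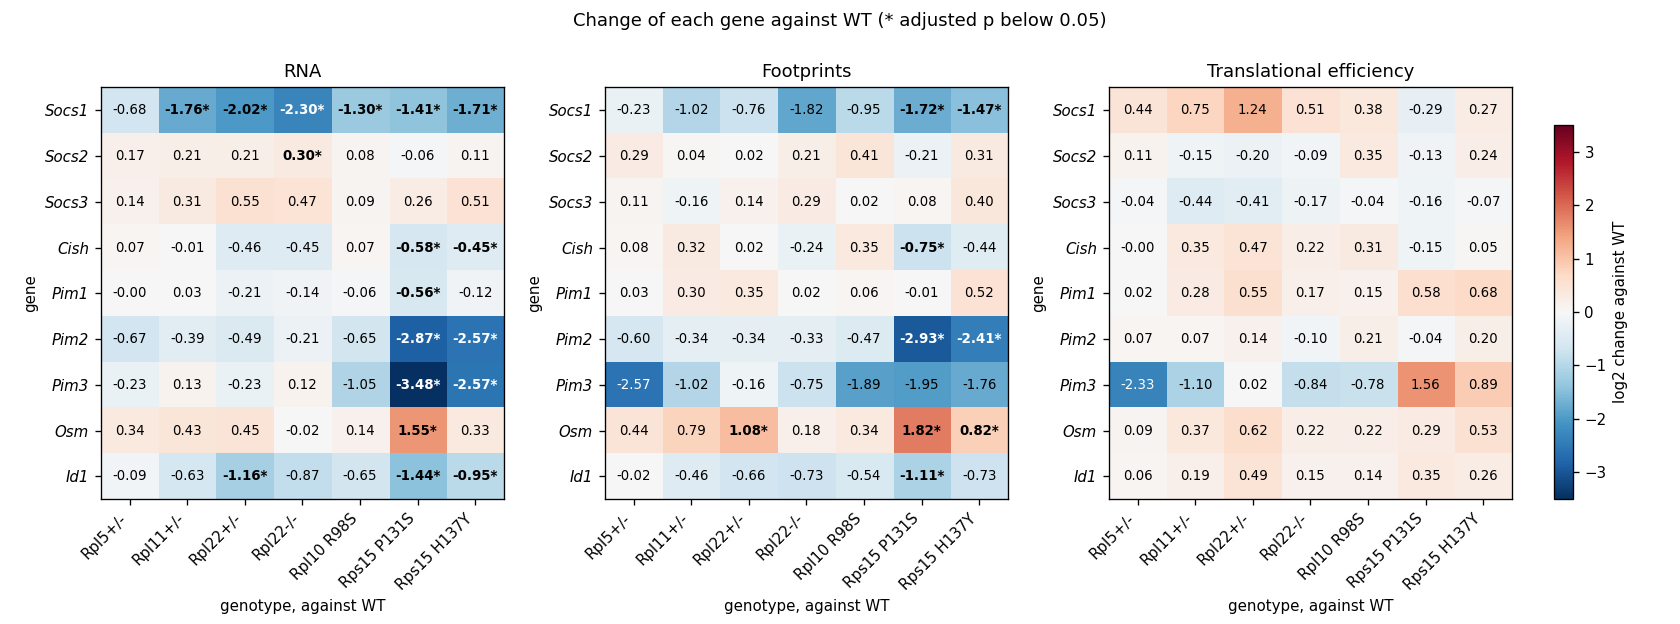
Log2 change against WT of the 9 tested genes (rows) in 7 genotypes (columns) for RNA, footprints and translational efficiency, with blue for lower and red for higher values and an asterisk for an adjusted p below 0.05. The dark blue Pim2 cells of both Rps15 genotypes (−2.87 and −2.57 in RNA) recur in footprints, while no cell of the efficiency panel carries an asterisk.

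Socs1, the inhibitor that binds JAK2 and blocks its kinase domain, was the member called in the most genotypes: its RNA fell in 6 of 7. The gene lies at chr16:10783808-10785536. WT clones had 46.9, 51.9 and 52.5 CPM. The clones labelled Rpl22-/- had 8.77, 10.2 and 11.4 CPM, Rpl22+/- clones 11.2, 11.5 and 14.6 CPM, and Rpl11+/- clones 10.8, 11.98 and 21.9 CPM. Every mutant clone in these genotypes lay far under every WT clone, and the 3 ranges overlapped one another. Rps15 H137Y clones had 14.8, 15.0 and 16.3 CPM, Rps15 P131S clones 9.40, 23.3 and 24.2 CPM, and Rpl10 R98S clones 17.1, 20.1 and 24.0 CPM. The log2 change was −2.30 ± 0.29 (SE, n = 3 against 3, as for all changes below) in the clones labelled Rpl22-/- (adjusted p 0.000141), −2.02 ± 0.29 in Rpl22+/- (0.000477), −1.76 ± 0.28 in Rpl11+/- (0.000962), −1.71 ± 0.28 in H137Y (0.00012), −1.41 ± 0.28 in P131S (0.000491) and −1.30 ± 0.28 in Rpl10 R98S (0.00558). Rpl5+/- stood between WT and these groups with 25.3, 34.1 and 35.0 CPM, and its change of −0.68 ± 0.28 was not called (adjusted p 0.243). Without clone 30 labelled Rpl22-/-, the change in that genotype was −2.30 with an adjusted p of 0.00145. The Socs1 change did not differ between the clones labelled Rpl22-/- and Rpl22+/- beyond its error (−0.29 ± 0.29, adjusted p 1), a comparison with a background of 0.0078%.

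Socs1 footprints were also lower in both Rps15 genotypes. WT clones had 7.78, 9.35 and 11.3 CPM, and P131S clones 2.12, 2.42 and 4.06 CPM. All P131S clones lay below all WT clones, and the change was −1.72 ± 0.44 (adjusted p 0.0104). H137Y clones had 1.00, 4.22 and 5.11 CPM, a change of −1.47 ± 0.44 (adjusted p 0.0342). The clones labelled Rpl22-/- had 2.25, 2.76 and 3.06 CPM, the lowest mean of the 8 genotypes, yet their change of −1.82 ± 0.44 was not called (adjusted p 0.142) in a comparison in which 17 of 16217 genes were. DESeq2 gave it an adjusted p of 0.00698. Without clone 30 that change was −1.83 with an adjusted p of 0.445. The P131S call was lost without clone 20 (−1.55, adjusted p 0.0611). The H137Y call was lost without WT clone 1, 2 or 3 (−1.47, −1.58 and −1.32, adjusted p 0.0816, 0.0552 and 0.111), without H137Y clone 16 (−1.64, 0.0558) and without H137Y clone 2 (−1.02, 0.103).

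Cish, which encodes a SOCS-family protein that competes with STAT5 for the activated receptor, lies at chr9:107296659-107302784 and fell modestly in both Rps15 genotypes. Its RNA was 233, 245 and 256 CPM in WT, 117, 180 and 194 CPM in P131S and 153, 182 and 202 CPM in H137Y. The 6 Rps15 clones all lay below the 3 WT clones. The change was −0.58 ± 0.14 in P131S (adjusted p 0.00169) and −0.45 ± 0.14 in H137Y (0.0117). Rpl22+/- clones, with 158, 187 and 188 CPM, and clones labelled Rpl22-/-, with 163, 171 and 204 CPM, were also all below WT, at −0.46 ± 0.14 and −0.45 ± 0.14, but with adjusted p of 0.0647 and 0.0627 they were not called. DESeq2 called both (adjusted p 0.0174 and 0.0205), and without clone 30 the Rpl22-/- change was −0.38 (adjusted p 0.237 in edgeR). Rpl5+/-, Rpl11+/- and Rpl10 R98S clones had 231 CPM or more and overlapped WT. In footprints Cish fell in P131S, from 242, 250 and 341 CPM in WT to 122, 156 and 217 CPM (−0.75 ± 0.21, adjusted p 0.0183), whereas H137Y at −0.44 ± 0.21 was not called (0.202). The P131S footprint call was lost without P131S clone 20 (−0.58, adjusted p 0.110), P131S clone 63 (−0.68, 0.0715) or WT clone 3 (−0.55, 0.127), and the H137Y RNA call without clone 6 (−0.35, 0.063).

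Socs2 and Socs3, both feedback inhibitors with the same SH2 and SOCS-box layout, moved little. Socs2 (chr10:95383903-95417321) overlaps a long noncoding gene in RefSeq, and reads of the 2 could be mixed if strand was not used in counting. Its RNA was 38.9, 39.4 and 39.7 CPM in WT and 46.5, 48.1 and 51.2 CPM in the clones labelled Rpl22-/-. These ranges did not overlap, and Socs2 rose by 0.30 ± 0.07 on the log2 scale (adjusted p 0.0152), the narrowest error of any member. The call was lost without WT clone 1, 2 or 3 (0.30, 0.31 and 0.30, adjusted p 0.0553, 0.0519 and 0.0681) or without clone 776 (0.27, 0.0848), and it held without clone 30 (0.31, 0.0498). The clones of Rpl5+/-, Rpl11+/-, Rpl22+/-, Rpl10 R98S and H137Y also all exceeded the WT clones in Socs2 RNA, by 0.08 to 0.21, with adjusted p of 0.0628 to 0.479. Socs2 footprints, 16.3, 18.1 and 19.3 CPM in WT, were not called in any genotype.

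Socs3 (chr11:117966079-117970336) was not called in any genotype at either level. Its RNA was 13.8, 14.9 and 15.9 CPM in WT and 18.9, 22.8 and 23.4 CPM in Rpl22+/-, a difference of 0.55 ± 0.21 with an adjusted p of 0.18. The H137Y clones were the most uneven, with 12.3, 23.5 and 27.7 CPM, so 1 clone lay under WT and the others well above it. With that clone, number 6, left out, the H137Y change was 0.78 with an adjusted p of 0.000437, against 0.51 ± 0.21 and 0.0555 with it. Footprints of Socs3 were at most 7.95 CPM in any library.

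**Figure D2:**
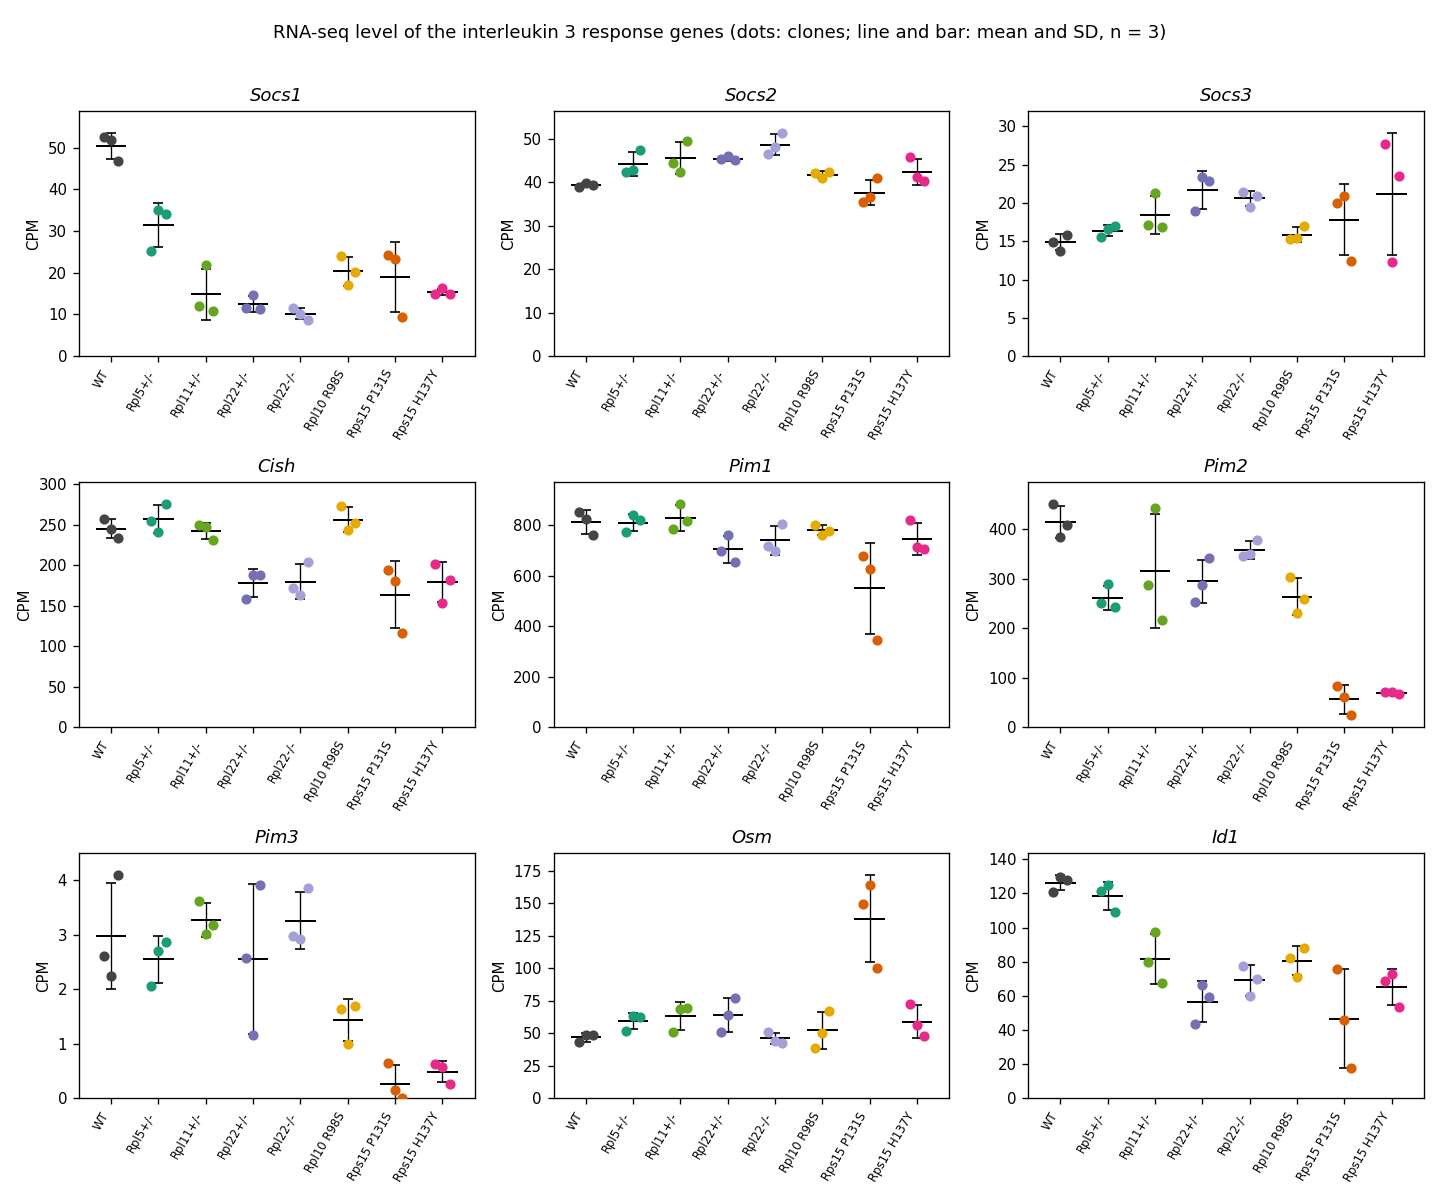
RNA level in CPM (linear axis from 0) of the 9 tested genes, 1 panel each, with 1 dot per clone and the mean and SD (n = 3) in black for each of the 8 genotypes. Socs1 is at 46.9 to 52.5 CPM in WT and at most 24.2 CPM in 6 genotypes, Pim2 drops to 83.3 CPM or less in the Rps15 clones, and Osm reaches 100 to 164 CPM in P131S.

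Pim2, a constitutively active serine/threonine kinase that promotes survival and protein synthesis, fell furthest among the members with ample reads, and at both levels. It lies at chrX:7878306-7883432 and overlaps no other RefSeq gene. Its RNA was 385, 409 and 451 CPM in WT, 25.5, 62.0 and 83.3 CPM in P131S and 66.7, 70.3 and 72.2 CPM in H137Y. The 6 Rps15 clones lay below every one of the other 18 clones, the lowest of which had 217 CPM. The change was −2.87 ± 0.31 in P131S (adjusted p 1.99e-06) and −2.57 ± 0.31 in H137Y (6.31e-06), which are 7.30-fold and 5.95-fold lower levels. P131S clone 20 had the lowest value, and without it the P131S change was −2.52 (adjusted p 7.79e-07). P131S and H137Y did not differ from each other beyond the error (−0.30 ± 0.29, adjusted p 0.516, with a background of 25.2% in that comparison).

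Pim2 footprints repeated the pattern, with 208, 276 and 327 CPM in WT, 16.4, 37.2 and 53.2 CPM in P131S and 49.0, 50.3 and 53.2 CPM in H137Y. Again no Rps15 clone reached the other genotypes, whose lowest clone had 159 CPM. The change was −2.93 ± 0.30 in P131S (adjusted p 5.84e-06) and −2.41 ± 0.29 in H137Y (3.52e-05). The Pim2 calls of both Rps15 genotypes, at both levels, held in all 6 fits that left out a clone of the comparison and in all 5 alternative settings. In the 5 other mutant genotypes the mean Pim2 RNA was 261 to 359 CPM, below WT, with changes of −0.67 to −0.21 and adjusted p of 0.147 to 0.784. The wide group was Rpl11+/-, whose clones had 217, 287 and 443 CPM.

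Pim3, another kinase of the family, was scarce in this line but fell in the same 2 genotypes. It lies at chr15:88862194-88865726, where RefSeq lists an overlapping protein-coding gene model, so its few reads are uncertain. WT RNA libraries held 63, 69 and 119 reads, or 2.24, 2.599 and 4.08 CPM. H137Y libraries held 7, 16 and 22 reads (0.270, 0.568 and 0.638 CPM), and P131S libraries 0, 4 and 17 reads (0 to 0.645 CPM). All 6 Rps15 clones lay below the other 18, the lowest of which, a Rpl10 R98S clone, had 0.995 CPM. The change was −3.48 ± 0.61 in P131S (adjusted p 0.000112) and −2.57 ± 0.56 in H137Y (0.00103). Without clone 20, which held 0 reads, the P131S change was −2.87 (adjusted p 0.000251), and without clone 24, which held the 17 reads, it was −5.25 (5.93e-06), so its size rests on single clones. Rpl10 R98S stood at −1.05 ± 0.51 and was not called (0.183). Footprints of Pim3 were at most 53.0 reads in a library, and no difference was detectable at that depth.

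Pim1, the best known kinase of the family and a classic cytokine-induced gene, behaved differently. It lies at chr17:29490785-29496111 and overlaps a long noncoding gene in RefSeq. Its RNA was 763, 825 and 853 CPM in WT and 344, 627 and 681 CPM in P131S, so that all P131S clones were below all WT clones. It fell by 0.56 ± 0.15 in P131S (adjusted p 0.00524), and without clone 20, the lowest, the change was −0.32 (0.00385). H137Y clones had 706, 717 and 820 CPM and overlapped WT (−0.12 ± 0.15, adjusted p 0.555). The difference between P131S and H137Y was −0.44 ± 0.15 (adjusted p 0.0402). It was lost without P131S clone 20 (−0.19, adjusted p 0.104) and without H137Y clone 16, 2 or 6 (−0.37, −0.48 and −0.47, adjusted p 0.146, 0.0541 and 0.0559).

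Pim1 footprints were not called in any genotype, and the direct test of footprints against RNA is given below. They were 693, 846 and 903 CPM in WT, 665, 803 and 957 CPM in P131S and 1105, 1179 and 1216 CPM in H137Y. P131S therefore overlapped WT (−0.01 ± 0.19, adjusted p 0.985), and the H137Y clones were all above WT at 0.52 ± 0.19, which was not called (0.0896). DESeq2 called that difference (adjusted p 0.0331). Rpl22+/- clones, at 935, 1052 and 1128 CPM, also all lay above WT and were not called. Rpl11+/- clones had 737, 871 and 1395 CPM and overlapped WT.

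**Figure D3:**
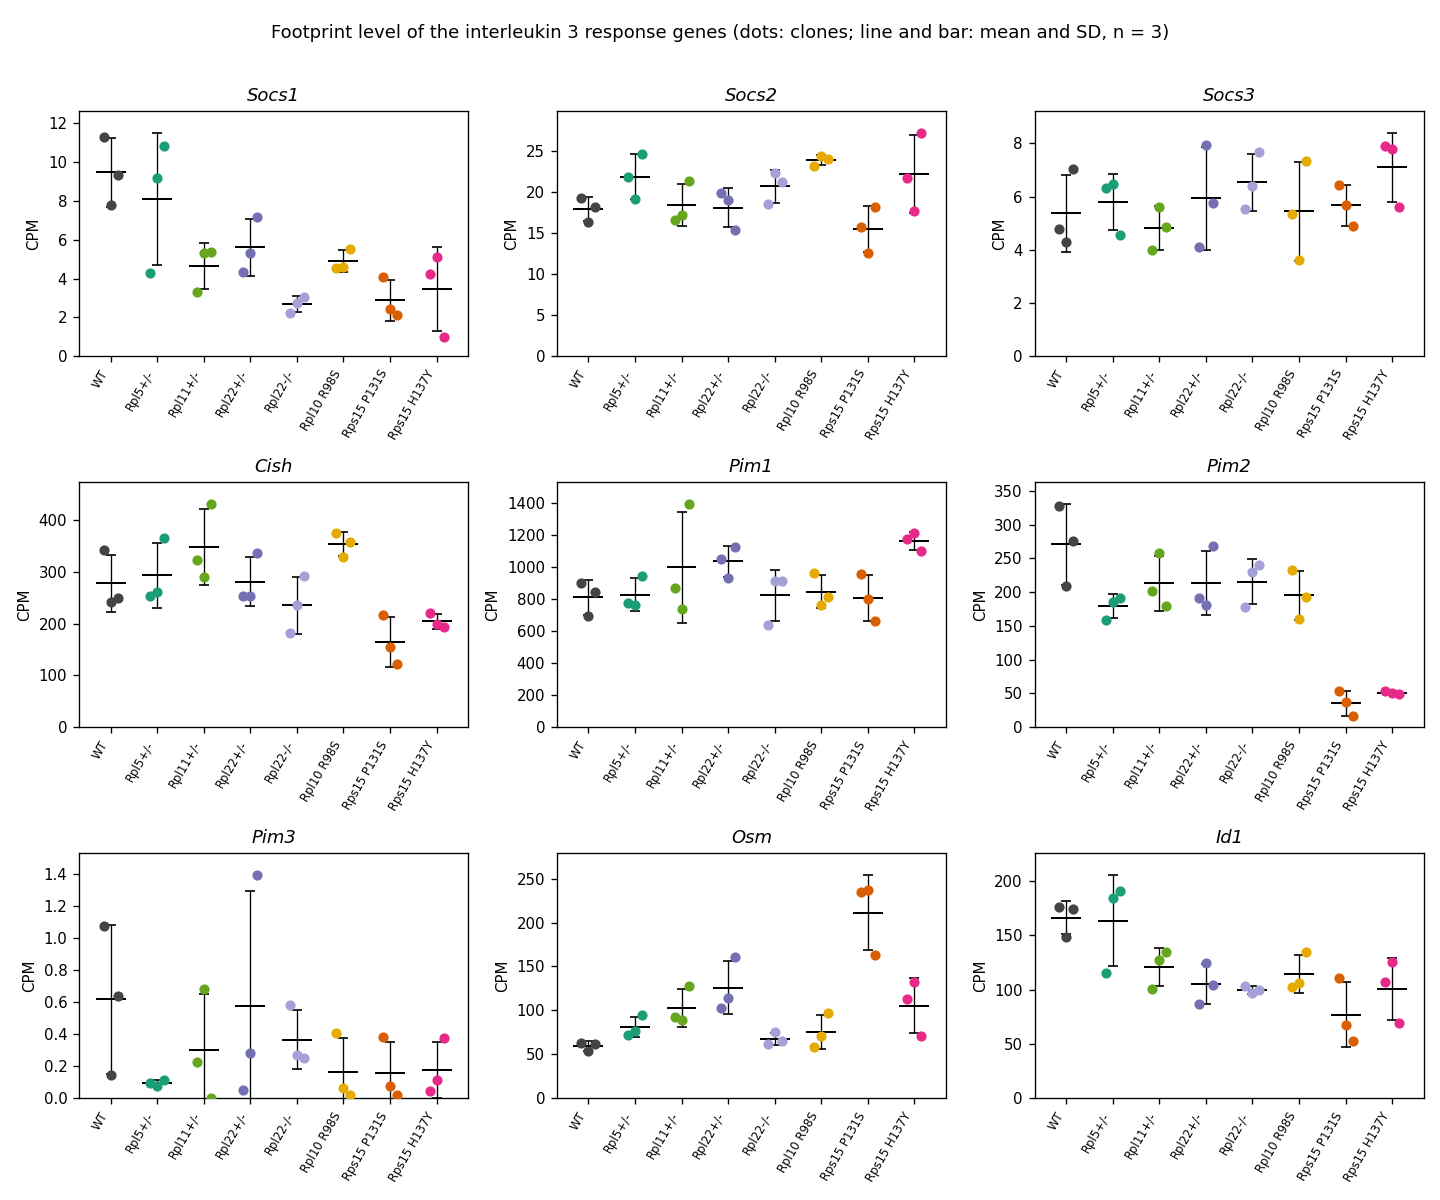
Footprint level in CPM (linear axis from 0) of the same 9 genes, laid out as for RNA, with 1 dot per clone and the mean and SD (n = 3) for each genotype. Pim2 lies at 53.2 CPM or less in the 6 Rps15 clones, Osm at 163 to 236 CPM in P131S, and Pim3 scatters near 0 in all genotypes.

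Osm, which encodes oncostatin M, a secreted cytokine of the interleukin 6 family, was the only member that rose in an Rps15 genotype in RNA. It lies at chr11:4236785-4241026 and overlaps no other RefSeq gene. Its RNA was 43.1, 48.8 and 49.0 CPM in WT and 100, 150 and 164 CPM in P131S. The 3 P131S clones exceeded all other 21 clones, the highest of which, in Rpl22+/-, had 77.5 CPM. The change was 1.55 ± 0.22 (adjusted p 1.7e-05), and 1.73 (1.01e-05) without clone 20. H137Y clones had 47.98, 56.2 and 72.9 CPM and were not called (0.33 ± 0.21, adjusted p 0.227). The direct difference, P131S over H137Y, was 1.22 ± 0.21 (adjusted p 0.000488) and was called in all 6 fits that left out a clone of the comparison.

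Osm footprints were higher in more genotypes. They were 53.6, 62.4 and 63.0 CPM in WT and 163, 235 and 236 CPM in P131S, a rise of 1.82 ± 0.23 (adjusted p 4.72e-05). Rpl22+/- clones had 103, 115 and 161 CPM and H137Y clones 71.4, 113 and 132 CPM. Both groups lay entirely above WT and rose, by 1.08 ± 0.23 (adjusted p 0.0468) and 0.82 ± 0.23 (0.0218). The Rpl22+/- call was lost without WT clone 1, 2 or 3 (1.11, 1.01 and 1.12, adjusted p 0.175, 0.282 and 0.0933), Rpl22+/- clone 13 (1.205, 0.0838) or Rpl22+/- clone 60 (0.86, 0.235). The H137Y call was lost without WT clone 1, 2 or 3 (0.86, 0.76 and 0.87, adjusted p 0.0558, 0.0835 and 0.0504), H137Y clone 16 (0.77, 0.0642) or H137Y clone 6 (0.64, 0.105). P131S exceeded H137Y by 1.00 ± 0.23 (adjusted p 0.0142, background 4.17%), a call lost without H137Y clone 2 (0.81, 0.0624). Rpl11+/- clones, at 89.2, 92.4 and 128 CPM, and Rpl5+/- clones, at 72.6, 76.2 and 94.5 CPM, were above all WT clones too, with adjusted p of 0.18 and 1.

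Id1, which blocks DNA binding by basic helix-loop-helix factors, fell in RNA in Rpl22+/- and both Rps15 genotypes. It lies at chr2:152736251-152737410 and overlaps no other RefSeq gene. WT clones had 121, 128 and 129 CPM, Rpl22+/- clones 43.3, 59.6 and 66.6 CPM, P131S clones 18.1, 46.1 and 75.7 CPM and H137Y clones 53.4, 69.0 and 73.1 CPM. The 9 clones of these 3 genotypes were all at or below 75.7 CPM, and P131S was the most spread. The change was −1.44 ± 0.32 in P131S (adjusted p 0.00143), −1.16 ± 0.32 in Rpl22+/- (0.049) and −0.95 ± 0.31 in H137Y (0.022). Without P131S clone 20 the P131S change was −1.06 (adjusted p 0.000776). The Rpl22+/- call was lost on leaving out any of its 3 clones (13, 16 or 60: −0.997, −1.29 and −1.19, adjusted p 0.195, 0.102 and 0.11) or any WT clone (1, 2 or 3: −1.15, −1.14 and −1.18, adjusted p 0.124, 0.13 and 0.124). The H137Y call was lost without H137Y clone 2 (−0.83, 0.0824) or WT clone 2 (−0.93, 0.0509).

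The clones of Rpl11+/-, those labelled Rpl22-/- and Rpl10 R98S also lay below every WT clone in Id1 RNA, at −0.63 ± 0.31, −0.87 ± 0.31 and −0.65 ± 0.31, with adjusted p of 0.205, 0.134 and 0.183. When P131S clone 20 was left out of the fit, all 3 were called (adjusted p 0.0258, 0.00662 and 0.0201), with changes of −0.63, −0.88 and −0.66. Without clone 30 the Rpl22-/- change was −0.77 (adjusted p 0.354). Rpl5+/- alone overlapped WT, with 109, 121 and 125 CPM. Id1 footprints fell in P131S, from 148, 174 and 176 CPM in WT to 53.2, 67.1 and 111 CPM (−1.11 ± 0.24, adjusted p 0.00356). In H137Y they stood at 68.9, 107 and 125 CPM (−0.73 ± 0.24, adjusted p 0.0558), below WT in each clone but not called, whereas DESeq2 and limma voom called it (adjusted p 0.0243 and 0.0294).

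Bcl6, the repressor gene whose promoter window above carries 3 palindromes, was all but absent. It had 0 to 2 reads in an RNA library and was at 0 in 15 of 24, and it had 0 to 15 estimated reads in a footprint library with 9 of 24 at 0. No comparison was made for it. In the footprints its highest value was 0.267 CPM, in a Rpl10 R98S clone.

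Translational efficiency, the footprint level relative to the RNA level, was not called for any member in any genotype in the main fit. That fit does not pair the RNA and footprint libraries of a clone. The test was the interaction of assay and genotype over 12074 genes, and the backgrounds were 0% in Rpl5+/- and 0% in Rpl11+/-, 0.00828% in Rpl22+/-, 0.0414% in the clones labelled Rpl22-/-, 0.364% in Rpl10 R98S, 5.39% in P131S and 4.28% in H137Y. By edgeR 5 of 63 pairs had an unadjusted p below 0.05: 2 in Rpl22+/- and 1 each in Rpl10 R98S, P131S and H137Y. Of all 12074 genes, 1119, 1040, 2317 and 2096 had such a p in these genotypes. In Rpl5+/-, Rpl11+/- and the clones labelled Rpl22-/- 240, 473 and 669 genes had it. DESeq2 and limma voom, fitted without pairing the libraries of a clone, called 0 as well. With the clone as a block, Pim1 in H137Y was called, as given below. In the joint test of 7 genotypes 0 of 9 members passed, against 9.97% of all genes, and Socs2 and Pim1 had an unadjusted p below 0.05. The errors were wide: the SE of an efficiency change was 0.17 for Socs2, 0.25 for Pim1, 0.42 for Pim2 and 1.39 to 1.56 for Pim3. Changes larger than these errors could also go uncalled, as for Pim1 below.

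Pim1 came nearest to a call. Its log2 ratio of footprint to RNA CPM (each with 0.5 added) was −0.25, 0.08 and 0.15 in WT, 0.52, 0.65 and 0.76 in H137Y and 0.36, 0.49 and 0.95 in P131S. All 6 Rps15 clones lay above all WT clones, and so did the Rpl22+/- clones, at 0.30, 0.59 and 0.78. The remaining mutant genotypes overlapped WT. The fitted change was 0.68 ± 0.25 in H137Y (adjusted p 0.115) and 0.58 ± 0.25 in P131S (0.182). With the clone added as a block, a fit that pairs the RNA and footprint library of a lysate gave 0.68 with an adjusted p of 0.041 in H137Y and 0.63 with 0.0528 in P131S. For Pim2 the ratios of mutant and WT clones overlapped: the ratio was −0.89, −0.57 and −0.46 in WT and −0.73 to −0.40 in the Rps15 clones, and its efficiency changes were −0.04 ± 0.42 and 0.20 ± 0.42, beside the RNA and footprint changes given above.

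**Figure D4:**
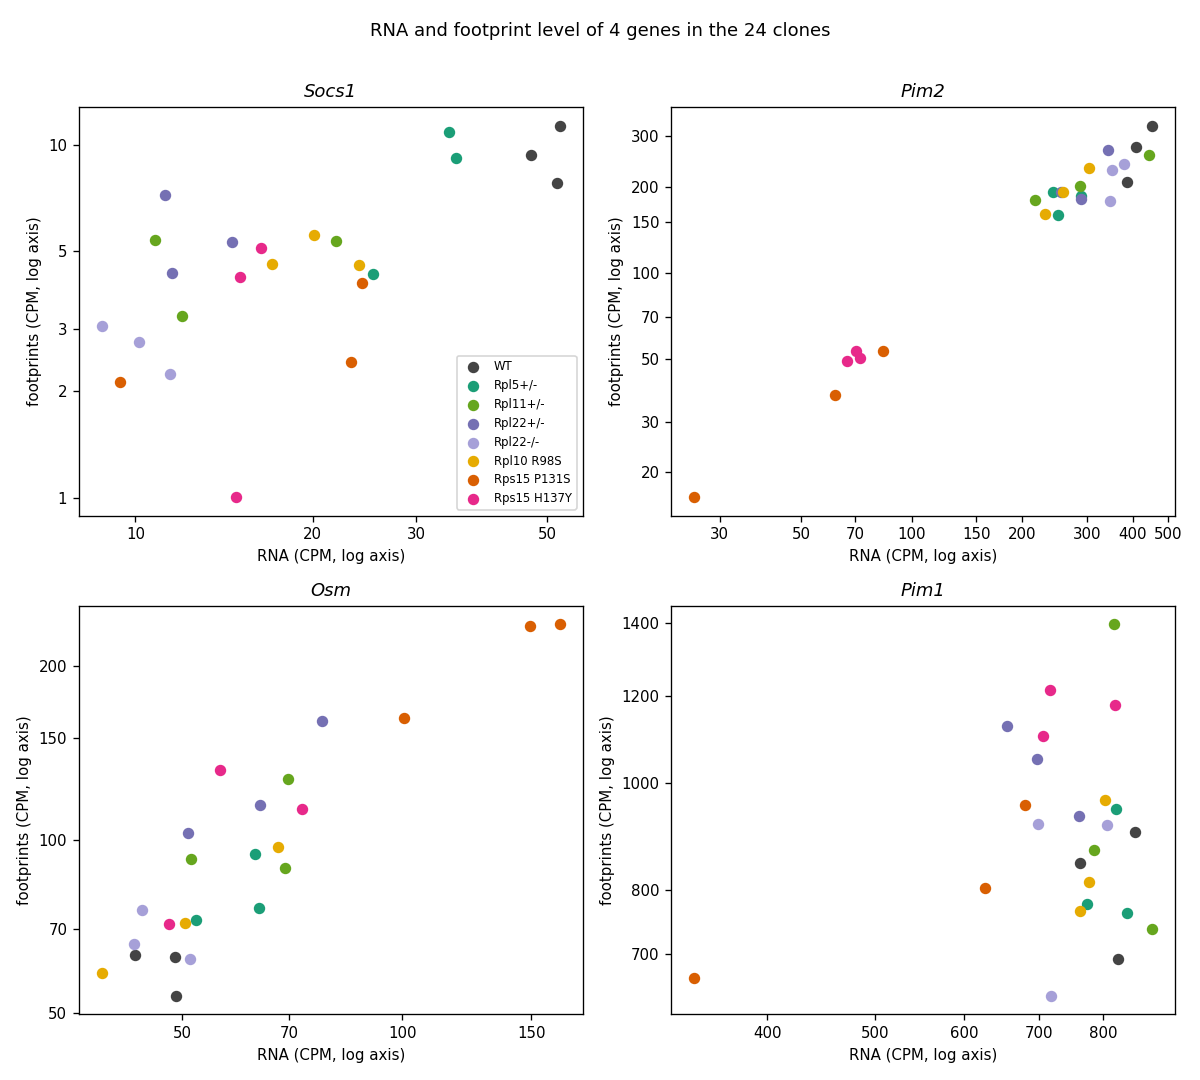
Footprint level against RNA level (CPM, both axes logarithmic) of Socs1, Pim2, Osm and Pim1 in the 24 clones, with 1 dot per clone coloured by genotype. For Pim2 and Osm the Rps15 P131S clones are displaced along both axes (Pim2 at 25.5 to 83.3 CPM in RNA and 16.4 to 53.2 CPM in footprints). For Pim1 the H137Y clones are high in footprints (1105 to 1216 CPM) at an RNA level within the other genotypes' range. Their footprints overlap those of Rpl22+/- (935 to 1128 CPM) and Rpl11+/- (737 to 1395 CPM).

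The rest of the pathway was read from lists. Beside the list counts, the shares of all genes called in RNA were 11.8% in Rpl11+/-, 12.9% in Rpl10 R98S and 5.27% in the clones labelled Rpl22-/-. They were 3.9% in Rpl22+/- and 1.04% in Rpl5+/-. Of 14 genes for the receptor, JAK kinases and STAT factors, 12 were tested in RNA, and 2 were called higher and 3 lower in P131S, 3 higher and 1 lower in H137Y, 1 higher in Rpl11+/- and 1 higher in Rpl10 R98S, and none in the other 3 genotypes. With 47% of all genes called in P131S and 41% in H137Y, the shares of called genes in this list did not exceed the background. The list median was 0.04 in P131S and 0.12 in H137Y. Csf2rb, the beta chain shared by the receptors for interleukin 3, interleukin 5 and GM-CSF, rose from a mean of 530 CPM in WT to 1524 CPM in P131S (1.52 ± 0.22, adjusted p 3.01e-05) and 992 CPM in H137Y (0.90 ± 0.22, 0.00305). Csf2rb2, the mouse beta chain used by interleukin 3 alone, rose by 1.29 ± 0.21 in P131S (adjusted p 0.0001) and 0.92 ± 0.21 in H137Y (0.00211). These 2 genes are close copies, so how reads were divided between them is uncertain. Jak3 rose by 0.64 ± 0.11 in H137Y (adjusted p 0.000128) and was not called in P131S (0.06 ± 0.11, 0.672).

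Other negative regulators of cytokine signals were called in 1 direction in RNA. Of 17 genes, all tested, 9 were called lower in P131S and 7 in H137Y. Lower calls numbered 4 in Rpl11+/- (background 11.8%), 3 in the clones labelled Rpl22-/- (5.27%), 2 in Rpl22+/- (3.9%) and 1 in Rpl10 R98S (12.9%). None was called higher in RNA. Counted in either direction, the share called was near the background of 47% in P131S and 41% in H137Y. By direction, 2993 of 12814 genes were called lower in P131S, 2557 in H137Y, 775 in Rpl11+/- and 773 in Rpl10 R98S. In the clones labelled Rpl22-/- 487 genes were called lower, and in Rpl22+/- 361. Whether the list leans lower beyond these shares was not tested. The list median was −0.27 in P131S and −0.19 in H137Y. Sh2b3, the adaptor LNK that restrains JAK2, fell by 1.24 ± 0.11 in P131S (adjusted p 4.78e-08) and 0.58 ± 0.10 in H137Y (0.000165). Pias1, an inhibitor of STAT factors, fell by 0.77 ± 0.08 and 0.57 ± 0.08 (2.85e-07 and 8.94e-06), and Socs5 by 0.93 ± 0.13 and 0.75 ± 0.13 (9.31e-06 and 9.92e-05). In footprints the list had 1 gene called higher and 7 lower in P131S and 2 lower in H137Y (backgrounds 16.7% and 11.7%). Of the named genes, Socs5 alone was called there, lower in P131S (−1.69, adjusted p 0.0125) and H137Y (−1.44, 0.0397). Sh2b3 footprints were not called (−1.61 and −2.32, adjusted p 0.319 and 0.167). Pias1 footprints were not called either (−0.30 and 0.05, adjusted p 0.103 and 0.875), and its efficiency was called higher in both (0.49 and 0.65, 0.0351 and 0.00482).

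Of 13 other STAT5 targets, 12 were tested in RNA, with 4 lower in P131S and 2 higher and 4 lower in H137Y (backgrounds 47% and 41%), 2 higher and 1 lower in Rpl11+/-, 2 lower in Rpl22+/-, 1 higher and 1 lower in the clones labelled Rpl22-/- and none in Rpl5+/- or Rpl10 R98S. Bcl2l1, the survival gene for BCL-XL, fell in RNA by 0.83 ± 0.12 in P131S (adjusted p 1.07e-05) and was not called in H137Y (−0.26 ± 0.12, 0.083). Its footprints were called lower in both (−1.01 and −0.54, adjusted p 5.56e-05 and 0.0102). Xbp1, a transcription factor of the secretory pathway, fell by 1.37 ± 0.16 in P131S and 1.148 ± 0.16 in H137Y (2.71e-06 and 1.99e-05), whereas the cyclin gene Ccnd3 rose by 0.65 ± 0.08 in H137Y (2.86e-06). Of 8 genes that rise in such cells when the cytokine is withdrawn, 7 were tested, with 5 lower in P131S and 1 higher and 5 lower in H137Y (backgrounds 47% and 41%), and medians of −0.77 and −1.05. In Rpl11+/- 1 was higher and 2 lower, in Rpl22+/-, the clones labelled Rpl22-/- and Rpl10 R98S 1 each was lower, and in Rpl5+/- none was called. Cdkn1b, the cell-cycle inhibitor p27, fell by 1.197 ± 0.16 in P131S and 1.05 ± 0.16 in H137Y (adjusted p 9.76e-06 and 4.37e-05), and also in 4 of the other 5 genotypes, with Rpl5+/- as the exception. Sesn1, a gene of the stress-response sestrin family, fell by 0.65 ± 0.10 in P131S and 0.40 ± 0.10 in H137Y (3.22e-05 and 0.00348). Bbc3, a gene for a death-promoting BCL2-family protein, fell by 0.77 ± 0.17 and 1.07 ± 0.17 in P131S and H137Y (0.00105 and 6.89e-05). These are RNA changes. In footprints Cdkn1b was called lower in P131S and H137Y (−0.73 and −0.57, adjusted p 0.00423 and 0.0279). Bbc3 footprints were called in P131S (−1.39, 0.00595) and not in H137Y (−0.86, 0.0941). Sesn1 footprints were called in neither (−0.47 and 0.05, 0.117 and 0.918). Of the paralogues of Id1 and Bcl6 listed, Id2 alone was tested in RNA, and it fell in P131S (−1.58 ± 0.23, adjusted p 2.31e-05), H137Y (−1.21 ± 0.23, 0.000307) and Rpl10 R98S (−0.98 ± 0.23, 0.008).

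The genes whose RNA followed each member most closely over the 24 libraries are given as a description. Pearson's r of log2(CPM + 1) was highest for Pim2 with Acsf2 (0.962) and Limd2 (0.961), Pim3 with Nrros (0.952) and Parpbp (0.936), and Id1 with Myc (0.938) and Klhl24 (0.871). For Socs1 it was highest with Tec (0.865) and Zfp60 (0.851), for Cish with Fbxl18 (0.879) and Neat1 (0.853), for Pim1 with Cmas (0.882) and Bnip3l (0.87), and for Osm with Dbi (0.84) and Rcsd1 (0.835). Socs3 was nearest Maff (0.853) and Smim3 (0.8), and Socs2 nearest Map3k14 (0.741) and Tpp1 (0.732). The libraries fall into 8 genotypes and share the fall or rise of the Rps15 clones, and these pairs were picked as the highest among all genes with a mean of at least 5 CPM.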

How the data were processed

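RNA-seq and ribosome footprint libraries of 24 clones were analysed from the 1 table the authors deposited, which holds estimated counts per gene without normalization; 7.28% of RNA and 15.7% of footprint values were not whole numbers. Per the submitters' processing notes, STAR 2.6.1d, Salmon 1.4.0, DESeq2 1.30 and GRCm38 were used, and their roles and the handling of strand are not given in the sources used here. Per the labels' protocols the RNA and footprint libraries of a clone come from 1 divided lysate, and footprints of 28 to 30 nt were selected.

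Values were rounded and tested with edgeR 4.0.16 (R 4.3.3; quasi-likelihood F test, TMM scaling, filterByExpr with a minimum count of 10), with all 24 libraries of an assay in 1 fit of genotype means. Benjamini-Hochberg adjustment ran within each comparison over 12814 RNA, 16217 footprint or 12074 efficiency genes, with a threshold of 0.05. The efficiency fit was the interaction over 48 libraries. The SE is the log2 change divided by the square root of F. CPM use TMM-scaled sizes, the factors running from 0.913 to 1.06 (RNA libraries) and from 0.877 to 1.08 (footprint libraries). An exact permutation test of 3 clones against 3 cannot go below 0.1, so adjusted p-values rest on a spread shared across genes; whether clones stand for separate cultures beyond the edit is not stated.

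Same-clone RNA and footprint libraries deviated together from their genotype means (correlations of 0.21 to 0.723 over 7137 genes, 24 of 24 over 0.1), so a clone block was fitted as an alternative. Between different clones of a genotype the correlations were −0.618 to 0.0685. Deviations from a mean of 3 clones cancel out, so positive same-clone values force these down. They are no separate evidence of pairing. Other alternatives were DESeq2 1.42.0, limma 3.58.1 (voom), RLE scaling, no count filter, only the 2 genotypes compared, another efficiency filter and leaving out each clone. The scripts were tested on simulated data. Loci and promoter windows are from RefSeq tables of GRCm38.p6, and figures were drawn with matplotlib 3.10.9.

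The members and the gene lists were chosen with earlier results of these data known. Named genes are all 10 members, the up to 3 genes per pathway list with the smallest adjusted p in an RNA comparison with WT, and the 2 genes most alike to each member. The neighbours named in the closing section fall outside this rule and were chosen after their values were seen.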

Additional observations from a re-analysis of the deposited data

Results flagged for a closer look

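In 3 instances a member differed between the 2 Rps15 mutations when P131S was compared directly with H137Y. Osm RNA was higher in P131S by 1.22 on the log2 scale, with each P131S clone above each H137Y clone. Osm footprints were higher by 1.00, again with all 3 P131S clones above all 3 H137Y clones. Pim1 RNA differed by −0.44, with each P131S clone below each H137Y clone, and by −0.19 without P131S clone 20, where the adjusted p was 0.104.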

How the results depend on the processing

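Called members kept their direction in each alternative run. Of 20 RNA calls (comparison of the Rps15 mutations included), 13 held in all leave-one-clone-out fits and all 5 alternative settings, as did 4 of 10 footprint calls. Over the 7 comparisons with WT, 18 member calls in RNA became 30 when only the 2 genotypes compared were fitted, and 15 to 26 with a clone left out. The 9 footprint calls ranged from 5 to 10 with a clone left out, the lowest without WT clone 3. The 0 efficiency calls became 1, Pim1 in H137Y, with the replicate block, with only the 2 genotypes compared and without P131S clone 20, so leaving out a clone gave 0 to 1. The replicate block changed no other member call. Id1 and Pim1 RNA in P131S were not called when only the 2 genotypes were fitted (adjusted p 0.0647 and 0.111). Calls over all genes were 15742 in RNA (11386 to 18587 without a clone), 4932 in footprints (2965 to 5438 without a clone, 7543 with DESeq2) and 1218 in efficiency (560 to 1465 without a clone, 1928 with DESeq2, 2148 with the replicate block).

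Per comparison, several of these counts moved by over 1.5 times with the method. In RNA, Rpl5+/- had 133 calls (49 to 1868 over the settings), Rpl11+/- had 1509 (855 to 1909), Rpl22+/- had 500 (342 to 1248), the clones labelled Rpl22-/- had 675 (486 to 1436) and Rpl10 R98S had 1647 (1198 to 4216). In footprints they were 2 (1 to 46), 12 (5 to 240), 41 (3 to 406), 17 (16 to 146) and 263 (255 to 738) in the same order, and in efficiency 0 (0 to 16), 0 (0 to 25), 1 (1 to 80), 5 (1 to 33) and 44 (35 to 255), with 651 (419 to 1127) in P131S and 517 (312 to 878) in H137Y. Between P131S and H137Y, 3234 RNA calls became 378 and 677 footprint calls became 34 when only these 2 genotypes were fitted, and DESeq2 gave 1309 footprint calls. The cause was not tested. Leaving out a clone moved them too. In RNA the lowest counts were 1 in Rpl5+/- (without WT clone 2), 598 in Rpl11+/- (without its clone 22), 211 in Rpl22+/- (without its clone 16), 319 in the clones labelled Rpl22-/- and 791 in Rpl10 R98S (both without WT clone 3), with 348 in the clones labelled Rpl22-/- without clone 30; Rpl5+/- reached 438 and Rpl22+/- 763 without H137Y clone 6. In footprints they were 1591 in P131S (without its clone 20), and, without WT clone 1, 1092 in H137Y, 50 in Rpl10 R98S, 5 in Rpl22+/- and 6 in the clones labelled Rpl22-/-; Rpl11+/- ran from 2 (without its clone 22) to 186 (without its clone 414), Rpl22+/- reached 252 without its clone 16, and Rpl5+/- ran from 0 (without WT clone 2) to 5 (without H137Y clone 2). In efficiency they were 287 in P131S (without WT clone 1), 217 in H137Y (without WT clone 2) and 17 in Rpl10 R98S (without WT clone 3), and Rpl22+/- ran from 0 to 174 (without WT clone 3 and its clone 16). Low reads limit Pim3 (0 to 119 in RNA) and Bcl6.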

Other observations

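The tested RefSeq genes next to Pim2 and Osm were looked at after the values above were seen. The 3 nearest tested genes on each side of Pim2 had RNA changes of −0.21 to 0.77 in P131S, 1 of 6 called, and −0.31 to 1.38 in H137Y, 3 of 6 called. The 6 around Osm had changes of −0.12 to 2.25 in P131S, 4 of 6 called, and −0.14 to 2.53 in H137Y, 2 of 6 called. Over all genes, 47% were called in P131S and 41% in H137Y. Near Osm, Hormad2 stood at 2.25 in P131S (adjusted p 0.00215) and 2.53 in H137Y (0.000998), and Castor1 at 1.66 (0.0134) and 0.25 (0.74). Lif, the gene of a related cytokine beside Osm, stood at 0.51 in P131S (0.086) and −0.14 in H137Y (0.673). These p-values are from edgeR's quasi-likelihood test.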
